A study of Homo sapiens with 8 samples.

Results

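The 45 genes described here encode subunits and factors of RNA polymerase I (Pol I) and proteins that modify, cut and assemble its transcript into ribosomes. They were chosen by name, as a list of gene symbols, and each was matched to 1 of the 58302 genes of the count table. All 45 passed the filter on low counts, which left 15712 genes in all. RNA was sequenced from HCT116 p53+/+ cells, an established human colon cancer line with wild-type p53, in 4 cultures given 1 µM MANIO and 4 given the solvent DMSO. Cells of both groups were grown alike and were collected 24 hours after the addition. MANIO is known here by its code name, and the series was made to ask whether it engages the transcriptional p53 response in this line. The labels call the samples of a group biological replicates and give no batch.

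Pol I transcribes the ribosomal RNA genes in the nucleolus into a long precursor. Small nucleolar ribonucleoproteins (snoRNPs) place methyl groups and pseudouridines on it, the small subunit processome folds and cuts its first part, and a separate set of factors builds the large subunit. Disturbed ribosome assembly is known to free the ribosomal proteins RPL5 and RPL11, which with 5S rRNA bind MDM2 and so stabilise p53, and p53 and MYC are both known to act on Pol I transcription, in opposite directions. MYC is also known to activate many genes of the pathway.

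Total counts per library were 29270359 to 32509020 in MANIO and 27945196 to 31750628 in DMSO, more than the number of raw reads per sample that the labels state, for a reason not given in the labels. Mitochondrially encoded genes took 6.70% to 7.62% of the counts in MANIO and 4.82% to 5.21% in DMSO replicates 2 to 4, but 7.48% in DMSO replicate 1. Established p53 targets were higher in MANIO, CDKN1A by 2.43 and MDM2 by 1.85 on the log2 scale. The 8 markers of colon epithelium summed to 4133 to 4634 CPM in MANIO and 3348 to 3620 CPM in DMSO, while EPCAM overlapped between groups, at 258 to 308 CPM in MANIO and 274.5 to 304 CPM in DMSO. Of them, the keratin genes KRT8, KRT18 and KRT19 and the adhesion genes EPCAM and CDH1 were abundant, while KRT20 (1.25 to 1.88 CPM in MANIO, 1.36 to 1.78 CPM in DMSO) and VIL1 (0.158 to 0.335 CPM in MANIO, 0 to 0.140 CPM in DMSO) were near 0. The 7 markers of other cell types summed to 40.3 to 47.6 CPM in MANIO and 24.0 to 29.3 CPM in DMSO, nearly all of it COL1A1 (38.9 to 46.6 CPM in MANIO, 21.1 to 25.9 CPM in DMSO). VWF (0.158 to 0.443 CPM in MANIO, 0.628 to 1.06 CPM in DMSO) and SYP (0.762 to 1.23 CPM in MANIO, 1.78 to 2.58 CPM in DMSO) were lower in MANIO without overlap, and PTPRC, CD3E, COL3A1 and PECAM1 were at or near 0; the part of these markers in the results was not tested. DMSO replicate 1 stood apart: a chi-square statistic divided by its degrees of freedom, near 1 for pure counting noise, was 20.7 to 24.4 between it and the other DMSO libraries, 3.605 to 10.3 among those others and 4.35 to 14.8 among MANIO libraries. DMSO replicate 4 was the lowest DMSO library for 27 of the 45 genes and the highest for 0.

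Levels are given as TMM-scaled CPM, counts per 1e6 counts after scaling by the trimmed mean of M-values. Fold changes are log2 ratios of MANIO over DMSO with their standard errors (SE). A gene is said to rise or fall where the adjusted p of edgeR's quasi-likelihood test, taken over all 15712 genes, was under 0.05. In RNA of whole cultures, fewer cells that express a gene and less RNA per cell cannot be told apart.

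The 45 genes changed little, and in both directions. In MANIO 13 rose, 13 fell and 19 did not pass. Without DMSO replicate 1 the counts were 11 and 12, and without DMSO replicate 4 they were 9 and 14. The share called, 57.8%, lay near the background, since 54.6% of all tested genes were called, 27.8% higher and 26.8% lower. For 21 of the 45 genes (46.7%) the 4 MANIO values lay all above or all below the 4 DMSO values, as did 48.3% of all genes. No member differed by as much as 2-fold, beside 6.89% of all tested genes that were called and at least 2-fold apart. The median log2 fold change over the members was 0.05 (0.0055 without DMSO replicate 4), and over all genes 0.00. Without its sign, the median was 0.15 for the members and 0.26 for all genes. Genes of all levels entered this comparison. Among genes with a mean log2 CPM of at least 5, a limit added after the values were seen, 59.1% of 44 members and 58.9% of 6564 genes were called, with median sizes of 0.15 and 0.20, and 1.43% of those 6564 genes lay at least 2-fold apart. When edgeR's glmTreat asked for a change beyond 1.2-fold, 5 members passed (11.1%), against a background of 26.3%. They were POLR1A, RRP12 and MYBBP1A, higher in MANIO, and NPM1 and FBL, lower in MANIO. Each of these 5 was also called in every other alternative fit, all of them drawn from the same libraries.

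**Figure D1:**
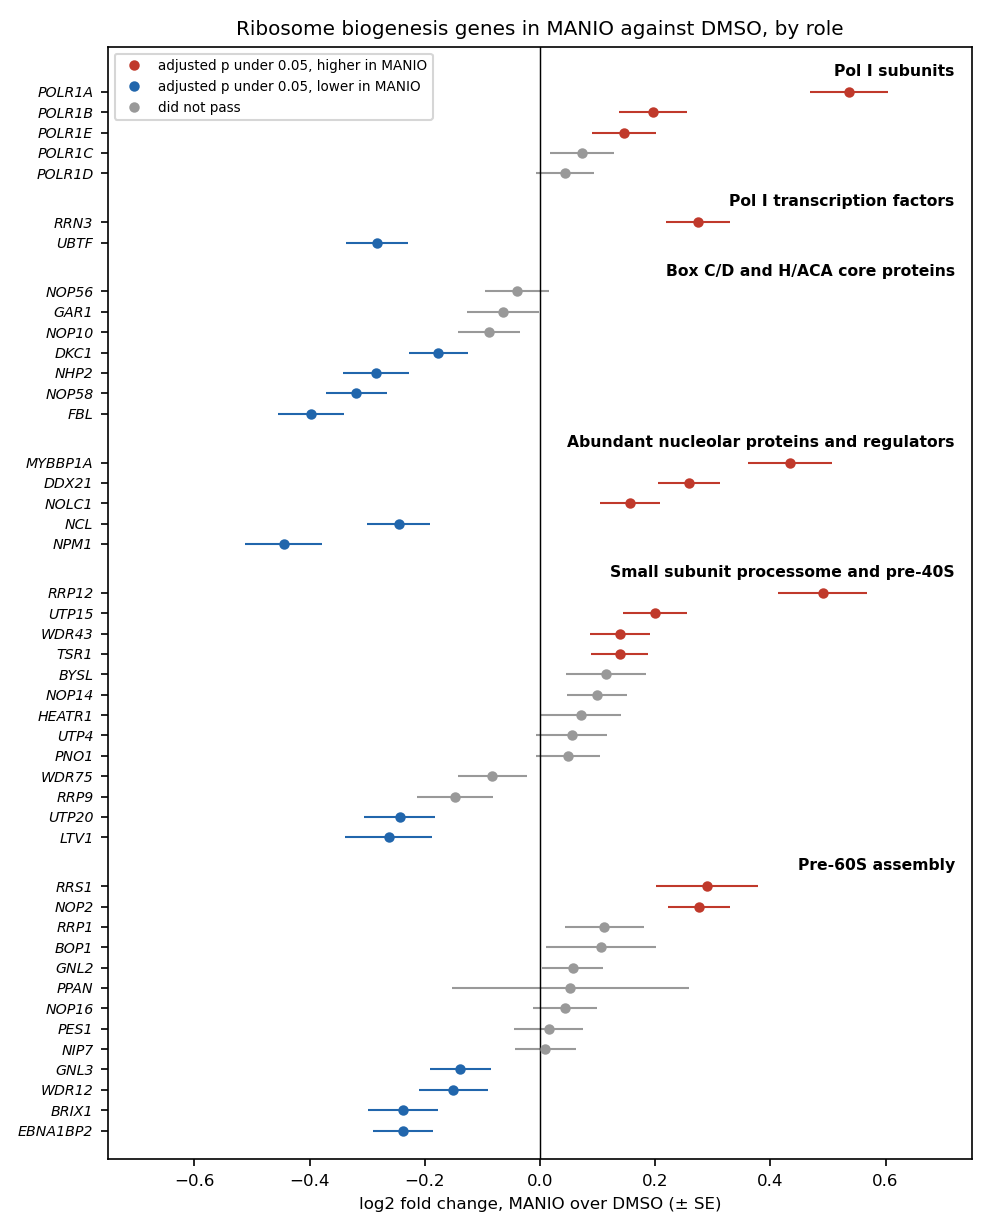
Log2 fold change of each of the 45 genes (x axis, MANIO over DMSO, with SE) by role (y axis); colours mark genes that passed the test in either direction. Changes run from -0.45 for NPM1 to 0.54 for POLR1A. The Pol I subunits among the 45 lie at or right of 0 and the snoRNP core proteins among them left of it.

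**Figure D2:**
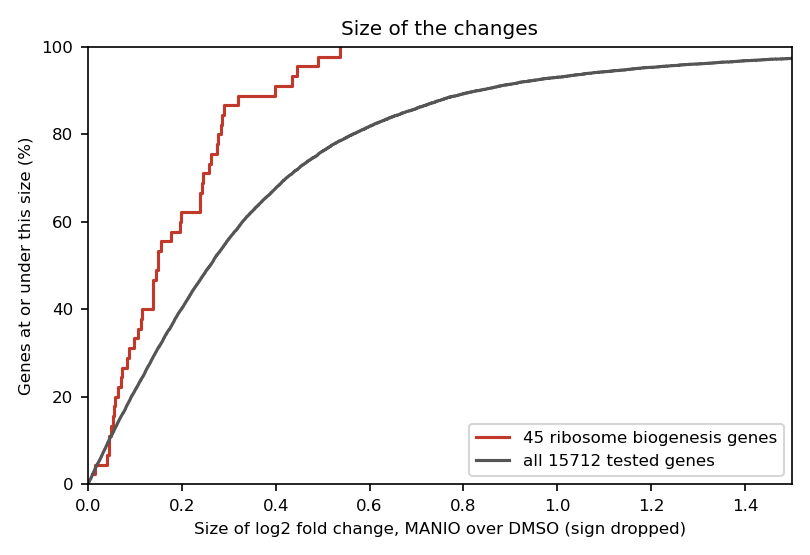
Share of genes (y axis, %) whose log2 fold change without its sign is at or under the value on the x axis, for the 45 genes and for all 15712 tested genes. The line of the 45 genes ends at 0.54, while that of all genes runs beyond the right edge.

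The promoters of 4 members were read from RefSeq (build GRCh38.p14) to show what lies before the start of genes that fell (FBL and DKC1 of the snoRNPs, UTP20 of the processome) and of a gene that rose (DDX21). These 4 promoters were not picked by a rule, so they do not stand for the members as a set. Each is printed 5′ to 3′ on the gene's strand, and only bases outside exons annotated in GENCODE release 29 are shown. Capitals mark matches, on either strand, to 3 motifs that were searched: CACGTG, the E-box bound by MYC and its relatives, CCGGAAGT, an ETS factor motif, and the palindromic NRF1 motif, whose 10 letters are the capitals of the DKC1 stretch. None of the 3 contains another.
FBL, chr19:39846415-39846629, minus strand: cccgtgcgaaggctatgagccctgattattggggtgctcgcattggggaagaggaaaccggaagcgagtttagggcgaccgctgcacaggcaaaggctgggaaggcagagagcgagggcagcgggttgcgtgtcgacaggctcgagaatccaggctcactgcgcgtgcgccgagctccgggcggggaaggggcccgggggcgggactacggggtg
DKC1, chrX:154762614-154762741, plus strand: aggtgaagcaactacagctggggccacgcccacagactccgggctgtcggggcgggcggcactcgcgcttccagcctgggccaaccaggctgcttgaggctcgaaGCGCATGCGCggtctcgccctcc
UTP20, chr12:101279855-101280104, plus strand: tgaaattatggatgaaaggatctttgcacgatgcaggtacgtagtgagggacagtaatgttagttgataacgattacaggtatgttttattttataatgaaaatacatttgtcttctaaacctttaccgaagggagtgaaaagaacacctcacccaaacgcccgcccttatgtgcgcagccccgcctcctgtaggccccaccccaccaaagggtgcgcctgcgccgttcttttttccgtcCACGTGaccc
DDX21, chr10:68955920-68956127, plus strand: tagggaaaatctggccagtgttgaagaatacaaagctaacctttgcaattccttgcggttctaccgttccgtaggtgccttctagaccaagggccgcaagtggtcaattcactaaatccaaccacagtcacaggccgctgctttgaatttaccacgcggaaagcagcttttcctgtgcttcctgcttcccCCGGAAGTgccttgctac

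The promoter table held 39 of the 45 genes. In the 250 bases before the start, the E-box was found in 4 of the 39 (10.3%), against 8.92% of 10645 tested genes with a promoter in the table. By call, it was found in 0 of 9 members that rose, 2 of 12 that fell and 2 of 18 that did not pass. The ETS motif was found in 6 of 39 (15.4%, against 7.02%). By call, these were 1 of 9 members that rose, 1 of 12 that fell and 4 of 18 that did not pass. The NRF1 motif was found in 2 of 39 (5.13%, against 1.94%), in DKC1, which fell, and MYBBP1A, which rose. MYC itself, which binds the E-box, rose by 0.42 on the log2 scale (388 ± 16.5 CPM in MANIO and 290.2 ± 18.8 CPM in DMSO, SD, n = 4 each). A match shows only that these letters are present.

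Of the 5 Pol I subunit genes among the 45, 3 rose and 0 fell, while 2 did not pass. Their median log2 fold change was 0.15. The share called, 60%, was near the 54.6% of all tested genes, where 27.8% were higher. The 45 do not hold every subunit. Of further subunit genes, POLR2E (-0.35) and POLR2F (-0.79, poorly measured) fell. TWISTNB (0.05), CD3EAP (0.01), ZNRD1 (-0.06), POLR2H (-0.04), POLR2K (-0.14) and POLR2L (-0.09) did not pass. POLR1A, on chromosome 2 at 86020216 to 86106155 of GRCh38, encodes the largest, catalytic subunit and rose the most of the 45. It had 177, 179, 161 and 149.8 CPM in MANIO, against 111, 128, 112 and 108 CPM in DMSO. Even the lowest MANIO library exceeded the highest DMSO library, and the fold change was 0.54 (SE 0.0682, adjusted p = 1.04e-05), or 1.45-fold. POLR1B, the other large catalytic subunit, had 101, 101, 91.8 and 100.1 CPM in MANIO, against 85.7, 93.1, 86.3 and 78.8 CPM in DMSO. The lowest MANIO library lay under the highest DMSO library, and the rise was 0.20 (SE 0.0593, adjusted p = 0.011). POLR1E, a subunit that Pol II and Pol III lack, had 75.0, 73.0, 73.0 and 73.2 CPM in MANIO, against 65.8, 69.3, 70.0 and 60.9 CPM in DMSO. Here the groups did not overlap, and the rise was 0.15 (SE 0.0555, adjusted p = 0.0366). That call held in 3 of 8 fits with 1 library left out, and was lost without MANIO replicate 1, 2 or 3 or DMSO replicate 1 or 4, and also with upper-quartile scaling, DESeq2 or no filter.

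POLR1C and POLR1D encode a pair of subunits that Pol I shares with Pol III. POLR1C had 63.3, 61.3, 59.5 and 61.8 CPM in MANIO, against 60.6, 61.7, 56.2 and 55.5 CPM in DMSO, and POLR1D had 112, 111, 109 and 118 CPM in MANIO, against 112, 104, 112 and 109 CPM in DMSO. In both genes the groups overlapped. Their log2 fold changes, 0.07 (SE 0.0551, adjusted p = 0.281) and 0.04 (adjusted p = 0.483), did not pass. Read within a library, where scaling cancels, POLR1A had 2.42 to 2.91 times the counts of POLR1C in MANIO and 1.84 to 2.07 times in DMSO.

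The Pol I transcription factor genes UBTF and RRN3 moved in opposite directions. UBTF, on chromosome 17 at 44205033 to 44221626, encodes the DNA-binding factor that keeps ribosomal RNA genes in an active state. It had 151, 149, 151 and 149.6 CPM in MANIO, against 169.9, 187, 198 and 177 CPM in DMSO. The MANIO libraries lay within a narrow band under all DMSO libraries, and the fold change was -0.28 (SE 0.0543, adjusted p = 4.36e-04). RRN3, on chromosome 16 at 15060022 to 15094317, encodes the initiation factor TIF-IA, which brings the polymerase to the promoter. It had 120.5, 130.3, 127 and 139 CPM in MANIO, against 106, 102, 111 and 108 CPM in DMSO. Its groups did not overlap either, and the fold change was 0.27 (SE 0.0556, adjusted p = 6.85e-04). The ratio of UBTF to RRN3 counts within a library was 1.17 ± 0.0756 in MANIO and 1.72 ± 0.112 in DMSO (SD, n = 4 each). RRN3 has near-identical pseudogenes, so its count is uncertain: RRN3P1 and RRN3P3 held 5.74% and 3.47% as many counts and rose by 0.63 and 0.67 on the log2 scale (adjusted p = 1.55e-04 and 7.46e-05).

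**Figure D3:**
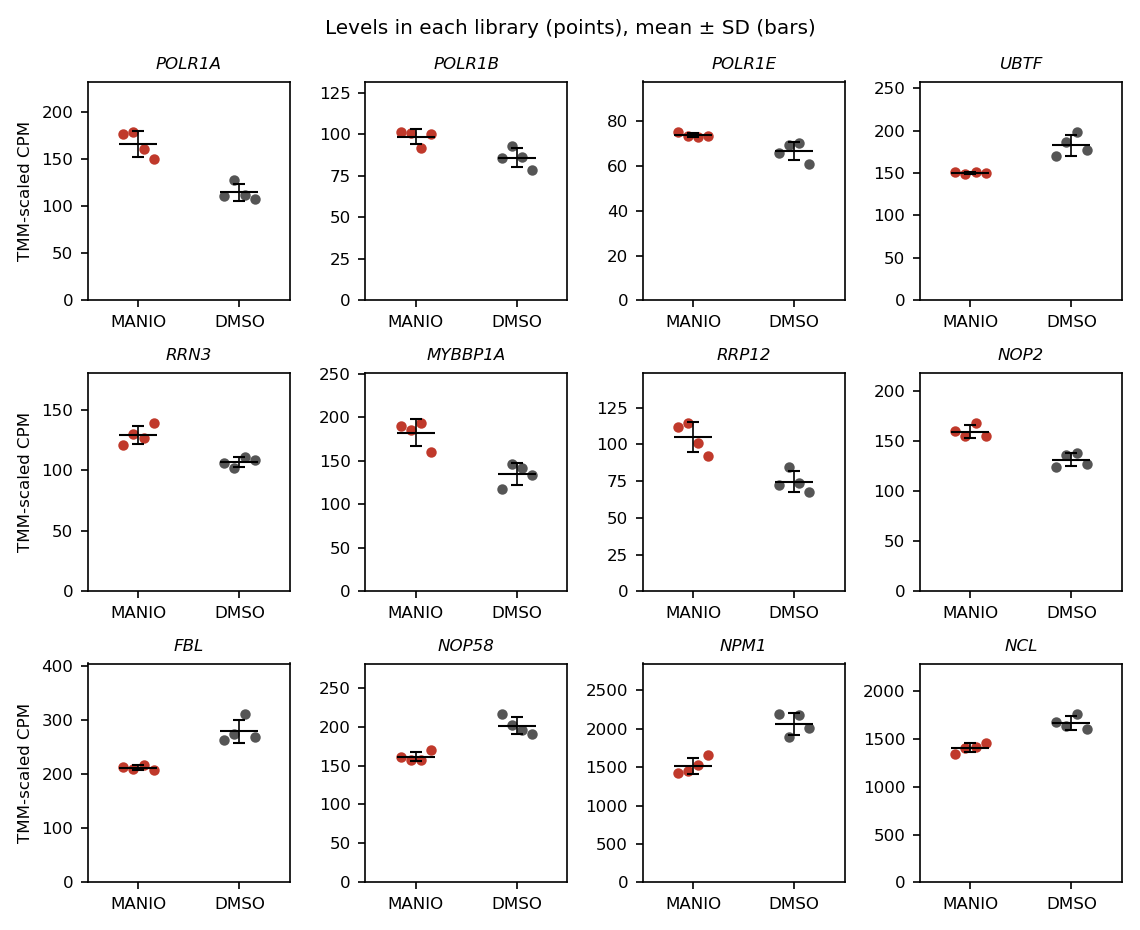
TMM-scaled CPM (y axis, from 0) of 12 genes in each MANIO and each DMSO library (points), with mean ± SD (bars, n = 4). In 11 of the panels the groups do not overlap, the exception being POLR1B. UBTF, FBL, NOP58, NPM1 and NCL are lower in MANIO and the other genes higher. All 12 genes shown passed the test, so they do not stand for the 45. The groups did not overlap for 46.7% of the 45 genes and 48.3% of all tested genes.

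Core snoRNP genes fell or did not pass: of 7, 4 fell and 0 rose, and the median was -0.18. The share called, 57.1%, was near the 54.6% of all tested genes, of which 26.8% were lower. All 7 had a negative log2 fold change, from -0.40 to -0.04. SNU13, a further box C/D core gene that was listed with other small subunit factors, did not pass (-0.06, adjusted p = 0.349). FBL, on chromosome 19 at 39834458 to 39846414, encodes fibrillarin, the methyltransferase of box C/D snoRNPs. It had 214, 210.1, 216 and 207 CPM in MANIO, against 263, 273, 311 and 268 CPM in DMSO. Every MANIO library lay under every DMSO library, and the log2 fold change was -0.40 (SE 0.0573, adjusted p = 3.43e-05). NOP58, a scaffold of the same particles, had 161, 157, 158 and 169.7 CPM in MANIO, against 216, 203, 196 and 191 CPM in DMSO. The groups did not overlap, at -0.32 (SE 0.0535, adjusted p = 1.39e-04). NOP56, the partner scaffold and the snoRNP core gene with the highest CPM, did not pass: it had 388, 370.1, 395 and 381 CPM in MANIO, against 369.5, 419.5, 411 and 376 CPM in DMSO, groups that overlap (-0.04, SE 0.0552, adjusted p = 0.568). Within a library, NOP58 had 0.421 ± 0.0194 times the counts of NOP56 in MANIO and 0.513 ± 0.0496 times in DMSO, and FBL had 0.552 ± 0.0106 times in MANIO and 0.708 ± 0.0429 times in DMSO (SD, n = 4 each).

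Box H/ACA snoRNPs carry the pseudouridine synthase dyskerin, encoded by DKC1, with NHP2, NOP10 and GAR1. NHP2 had 87.1, 82.9, 86.0 and 84.6 CPM in MANIO, against 97.4, 104, 115 and 98.6 CPM in DMSO, with no overlap and a log2 fold change of -0.28 (SE 0.0579, adjusted p = 7.04e-04). Of its exonic bases 27.4% overlap RMND5B on the opposite strand, so reads of the 2 genes cannot all be told apart in libraries that do not mark strand. DKC1 fell by 0.18 on the log2 scale (168 ± 5.88 CPM in MANIO and 190.0 ± 7.74 CPM in DMSO, SD, n = 4 each; adjusted p = 0.00847), again without overlap. NOP10 (-0.09, SE 0.0534) and GAR1 (-0.06, SE 0.0622) did not pass. The calls of FBL, NOP58, NHP2 and DKC1 held in all 8 fits with 1 library left out.

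The nucleolus also holds abundant proteins that bind ribosomal RNA or steer its synthesis, and among 5 such genes 3 rose and 2 fell, none with overlapping groups. Among all tested genes 54.6% were called and 48.3% did not overlap. NPM1, on chromosome 5 at 171387116 to 171411137, encodes nucleophosmin, a nucleolar scaffold that also binds MDM2. It had 1429, 1455, 1528 and 1661 CPM in MANIO, against 2191, 1891, 2175 and 2010.4 CPM in DMSO. The log2 fold change of -0.45 (SE 0.0666, adjusted p = 4.87e-05) was the lowest among the 45 genes. NPM1 has many pseudogenes, and the one with most counts, NPM1P27, held 0.486% as many and fell by 0.48. NCL, the gene of nucleolin, had 1347, 1407, 1422 and 1459 CPM in MANIO, against 1676, 1637, 1764 and 1602 CPM in DMSO, a log2 fold change of -0.25 (SE 0.0548, adjusted p = 0.00149).

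MYBBP1A, on chromosome 17 at 4538897 to 4555631, encodes a nucleolar protein known to promote p53 acetylation when it leaves the nucleolus. It had 190.3, 185, 193 and 160.2 CPM in MANIO, against 118, 146, 142 and 134 CPM in DMSO. The lowest MANIO library still lay above the highest DMSO library, and the rise was 0.43 (SE 0.0733, adjusted p = 1.48e-04). DDX21, an RNA helicase that links Pol I and Pol II transcription of ribosome genes, had 490.1, 505, 496 and 549 CPM in MANIO, against 434, 437, 425 and 409 CPM in DMSO, a rise of 0.26 (SE 0.0533, adjusted p = 7.83e-04). NOLC1, a chaperone of snoRNPs, rose by 0.16 (SE 0.0522, adjusted p = 0.0195), a call lost without MANIO replicate 2 or DMSO replicate 4 and with no filter. Together the 45 genes took 0.927 ± 0.0173% of all counts in MANIO and 0.967 ± 0.0281% in DMSO. Without NPM1 and NCL, the other 43 took 0.630 ± 0.00272% in MANIO and 0.598 ± 0.0236% in DMSO (SD, n = 4 each).

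Of 13 genes of the small subunit processome and of later pre-40S particles, 4 rose, 2 fell and 7 did not pass. The share called, 46.2%, was under the 54.6% of all tested genes. RRP12, on chromosome 10 at 97356358 to 97426076, encodes a factor of pre-40S maturation and export. It had 112, 115, 101 and 92.4 CPM in MANIO, against 72.5, 84.8, 73.9 and 67.5 CPM in DMSO. Its groups did not overlap and the rise was 0.49 (SE 0.0780, adjusted p = 8.81e-05), after POLR1A the largest of the 45. UTP15 belongs to the UtpA complex of the processome. Its levels were 50.8, 54.2, 50.9 and 55.1 CPM in MANIO, against 47.5, 47.3, 45.2 and 43.9 CPM in DMSO, a rise of 0.20 (SE 0.0555, adjusted p = 0.00687) without overlap. WDR43, of the same complex and the processome gene with the highest CPM, had 189, 205, 199 and 216 CPM in MANIO, against 188, 181, 185 and 181 CPM in DMSO. The groups of WDR43 were just apart (0.14, SE 0.0520, adjusted p = 0.034), and the call held in 3 of 8 fits with 1 library left out, being lost without MANIO replicate 2 or 4 or DMSO replicate 2, 3 or 4. TSR1, a pre-40S GTPase-like factor, rose by 0.14 (SE 0.0497, adjusted p = 0.0275), also kept in 3 of those 8 fits and lost without MANIO replicate 1 or 2 or DMSO replicate 1, 3 or 4. With no filter both calls were lost, and 2 of the 4 rises remained there and without MANIO replicate 2 or DMSO replicate 3 or 4. SRR, on the opposite strand, covers 20.7% of the exonic bases of TSR1.

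UTP20, a large processome protein, had 50.9, 53.4, 52.0 and 52.96 CPM in MANIO, against 66.3, 66.0, 58.8 and 56.8 CPM in DMSO. It was lower in every MANIO library and fell by 0.24 (SE 0.0611, adjusted p = 0.00343). LTV1, a pre-40S export factor, had 33.9, 36.5, 37.1 and 42.9 CPM in MANIO, against 49.9, 43.9, 44.1 and 42.4 CPM in DMSO, a log2 fold change of -0.26 (SE 0.0754, adjusted p = 0.00819) with overlapping groups. Exons of other genes cover 34.8% of the exonic bases of LTV1. The other 7 had log2 fold changes of 0.11 (BYSL), 0.10 (NOP14), 0.07 (HEATR1), 0.06 (UTP4), 0.05 (PNO1), -0.08 (WDR75) and -0.15 (RRP9), with SEs of 0.0520 to 0.0689. Of these, RRP9, a protein of the U3 snoRNP, passed in 6 of 15 alternative fits, and BYSL in 1. NOP14 shares 17.1% of its exonic bases with its antisense gene NOP14-AS1, which rose by 1.31 on the log2 scale (adjusted p = 2.95e-09). Of the UtpA complex, which binds the precursor first, UTP15 and WDR43 rose, and UTP4, WDR75 and HEATR1 did not pass, while NOL11, a further UtpA gene outside the 45 that was named after its values were seen, fell by 0.19 (176 ± 9.78 CPM in MANIO and 201 ± 3.30 CPM in DMSO, SD, n = 4 each; adjusted p = 0.0069); differences between these genes were not tested.

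Among 13 genes of large subunit assembly, 2 rose, 4 fell and 7 did not pass. That made 46.2% called, against 54.6% of all tested genes. The falls came to 2 without MANIO replicate 1, 2 or 3 or DMSO replicate 1, 2 or 3. NOP2, a methyltransferase of the large subunit RNA, had 159, 155, 168 and 155 CPM in MANIO, against 125, 136, 138 and 127 CPM in DMSO, with no overlap. The rise was 0.28 (SE 0.0534, adjusted p = 4.61e-04), but 54.4% of its exonic bases lie in exons of AC006064.6 on the same strand. RRS1, which joins the 5S RNP to the pre-60S particle, rose by 0.29 (SE 0.0890, adjusted p = 0.0129), with 48.5 to 58.6 CPM in MANIO and 36.5 to 49.4 CPM in DMSO, ranges that overlap. EBNA1BP2, an assembly factor of which 20.5% of exonic bases overlap other genes, had 114, 113, 117 and 113 CPM in MANIO, against 136, 141, 138 and 125 CPM in DMSO. All MANIO libraries were lower, and the log2 fold change was -0.24 (SE 0.0519, adjusted p = 0.00121). BRIX1, another assembly factor, had 89.9, 89.5, 92.7 and 107 CPM in MANIO, against 109, 111, 115 and 112 CPM in DMSO. MANIO replicate 4 came close to the DMSO libraries without reaching them, and the log2 fold change was -0.24 (SE 0.0613, adjusted p = 0.00411).

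GNL3, the gene of nucleostemin, a nucleolar GTPase that can bind MDM2, had 256, 248, 256 and 272 CPM in MANIO, against 303, 281, 282 and 271 CPM in DMSO. The groups overlapped by the highest MANIO and lowest DMSO library, and the log2 fold change was -0.14 (SE 0.0527, adjusted p = 0.0369). WDR12, which forms the PeBoW complex with PES1 and BOP1, fell by 0.15 (SE 0.0592, adjusted p = 0.0426) with overlapping groups, while PES1 (0.01, SE 0.0606) and BOP1 (0.11, SE 0.0955) did not pass. The calls of GNL3 and WDR12 each held in 2 of 8 fits with 1 library left out, and both were lost without MANIO replicate 1, 2 or 3 or DMSO replicate 1, 2 or 3. The other 5 that did not pass were RRP1 (0.11), GNL2 (0.06), PPAN (0.05), NOP16 (0.04) and NIP7 (0.01). PPAN is poorly measured, at 4.21 ± 1.07 CPM in MANIO and 4.07 ± 1.11 CPM in DMSO (SD, n = 4 each), and 59.8% of its exonic bases overlap other genes, mostly the readthrough gene PPAN-P2RY11, which had 0 counts.

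Per length, as CPM per kb of the longest annotated protein-coding transcript, NPM1 stood highest with 864 ± 59.1 in MANIO and 1176 ± 81.3 in DMSO. NCL followed with 349 ± 11.6 in MANIO and 414 ± 17.2 in DMSO, and FBL came next with 182 ± 3.67 in MANIO and 240.4 ± 18.6 in DMSO (SD, n = 4 each). These 3 genes were the top of the order in both groups, and all 3 fell. Ranks 4 to 6 were held in both groups by NOP10 and NOP56, which did not pass, and NOLC1, which rose. The Spearman correlation of the log2 fold change with mean log2 CPM was -0.141 over the members and -0.075 over 12893 tested protein-coding genes. POLR1A ranked 42 of 45 in MANIO, at 13.1 CPM per kb, and 43 in DMSO, at 9.003 CPM per kb, though its longest transcript of 12.7 kb may not be the main form in these cells. Over the 45 genes, the Spearman correlation of the log2 fold change with transcript length was 0.42, and 0.05 over 12893 tested protein-coding genes. It describes these 8 libraries, in which all the points share the same counts. Genes that rose had a median transcript of 4.48 kb, those that fell 2.04 kb and those that did not pass 2.33 kb. With the distance from the first to the last base of the gene the correlation was 0.08 for the members.

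**Figure D4:**
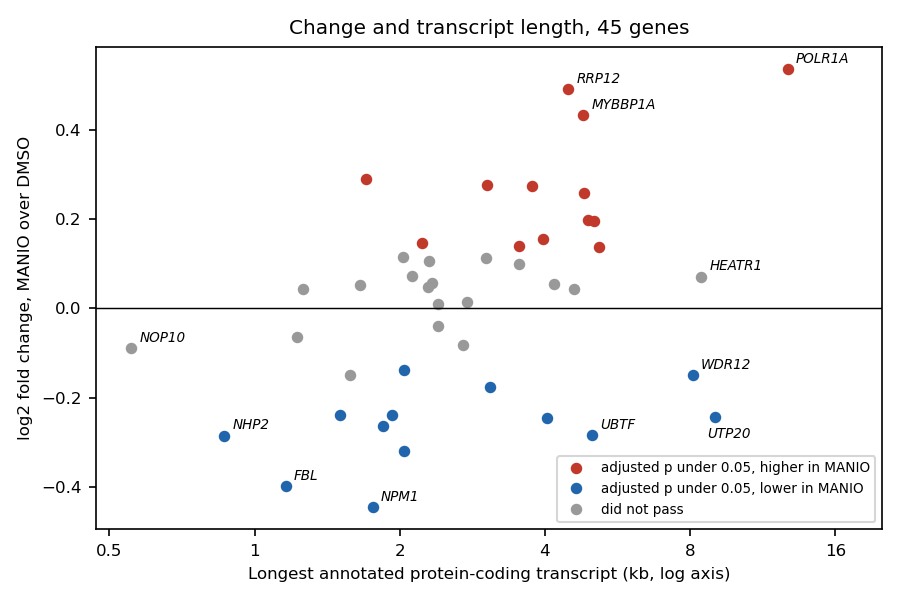
Log2 fold change (y axis, MANIO over DMSO) against the length of the longest annotated protein-coding transcript (x axis, kb, log scale) for the 45 genes. POLR1A, RRP12 and MYBBP1A are long and higher, NPM1, FBL and NHP2 short and lower, while WDR12, UTP20 and UBTF are long and lower.

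Several members carry small nucleolar or Cajal body RNAs inside their transcribed region, in introns or overlapping annotated exons, in GENCODE. Of 9 such host genes, 2 rose (TSR1 and WDR43), 4 fell (NOP58, NCL, DKC1 and GNL3) and 3 did not pass (NOP56, POLR1C and PPAN). Among all tested genes 54.6% were called, 27.8% higher and 26.8% lower. With 1 library left out, the calls of TSR1 and WDR43 each held in 3 of 8 fits, and that of GNL3 in 2 of 8. The counts do not separate these small RNAs from the host where they overlap its exons.

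The wider pathway was described with 129 further genes in 5 lists that share no gene with the 45. Among them 27 rose, 26 fell and 76 did not pass, so 41.1% were called, under the 54.6% of all tested genes, and the median log2 fold change was 0.01. Other Pol I machinery gave 1 rise (TAF1C) and 3 falls (TAF1B, POLR2E and POLR2F) among 15 genes. There were 2 rises without MANIO replicate 4 or DMSO replicate 2. The share called was 26.7%, under the 54.6% of all tested genes. POLR2F is poorly measured, at 0.476 ± 0.0937 CPM in MANIO and 0.827 ± 0.0953 CPM in DMSO (SD, n = 4 each), a log2 fold change of -0.79. TAF1B, of the SL1 complex that recognises the promoter, fell to 25.3 ± 2.01 CPM in MANIO, against 33.5 ± 2.78 CPM in DMSO (SD, n = 4 each). Its log2 fold change was -0.40 (adjusted p = 2.95e-04). TAF1C, of the same complex, rose by 0.31 (adjusted p = 0.00209), with 115 ± 8.44 CPM in MANIO and 92.3 ± 9.04 CPM in DMSO. TAF1A, TAF1D and TBP did not pass. POLR2E, a subunit shared by the 3 polymerases, fell by 0.35 (adjusted p = 6.06e-04).

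Other small subunit factors counted 8 rises and 7 falls among 43, with 4 falls without DMSO replicate 2 or 3. Those of smallest p were UTP18, which fell by 0.51 (96.6 ± 4.12 CPM in MANIO and 137 ± 13.2 CPM in DMSO; adjusted p = 1.32e-05), and RCL1, which rose by 0.45 (42.5 ± 1.06 CPM in MANIO and 31.1 ± 1.16 CPM in DMSO; adjusted p = 7.11e-06). Among 45 other large subunit factors 14 rose and 7 fell, or 4 fell without MANIO replicate 3. URB1 rose by 0.72 (157 ± 15.3 CPM in MANIO and 95.4 ± 5.74 CPM in DMSO; adjusted p = 5.96e-07), and SBDS, which frees the young large subunit for translation, rose by 0.54 (99.1 ± 4.07 CPM in MANIO and 68.0 ± 1.40 CPM in DMSO; adjusted p = 4.58e-07). Of 10 snoRNP assembly factors, C12orf45 rose by 0.66 (adjusted p = 4.32e-07) and 3 fell, among them RPAP3 of the R2TP chaperone complex (-0.34, adjusted p = 5.53e-04). Those falls came to 1 without DMSO replicate 3 and to 5 without MANIO replicate 4 or DMSO replicate 4. Of 16 genes of the exosome and of rRNA trimming, 3 rose and 6 fell, among them EXOSC8 (-0.36, adjusted p = 6.79e-05) and MTREX, the helicase that feeds the exosome (-0.39, adjusted p = 9.71e-05). Of the small subunit, large subunit, snoRNP and exosome lists, 34.9%, 46.7%, 40% and 56.2% were called, beside 54.6% of all tested genes. All SD in this paragraph are over n = 4 libraries.

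**Figure D5:**
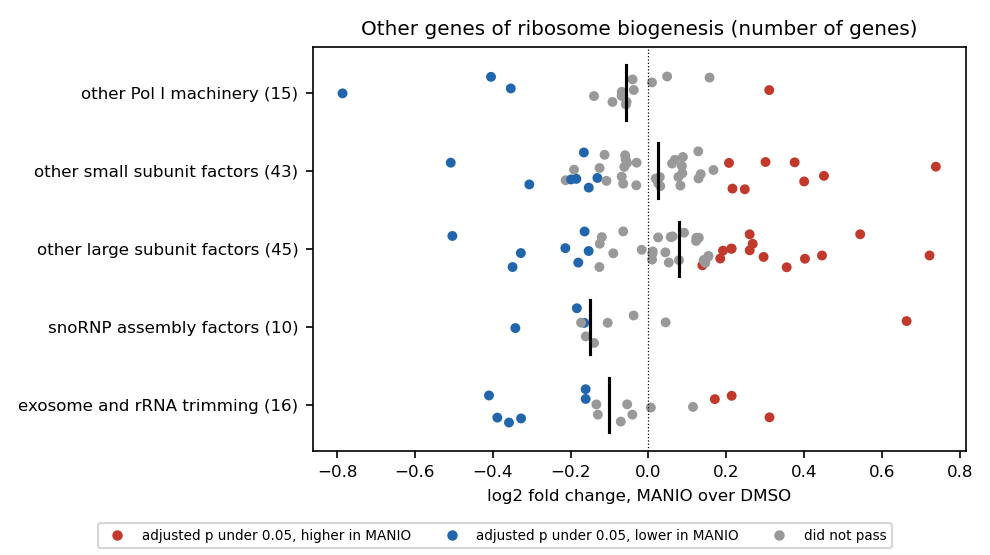
Log2 fold change (x axis, MANIO over DMSO) of each gene in the 5 further lists (y axis, number of genes in brackets; points are spread vertically for sight), with the median of each list as a black line. Medians lie between -0.15 (snoRNP assembly factors) and 0.08 (other large subunit factors). The leftmost point is POLR2F, which is poorly measured.

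Genes through which ribosome assembly is known to reach p53 were also read. RPL5 fell to 1180.2 ± 53.8 CPM in MANIO, against 1422 ± 92.5 CPM in DMSO (SD, n = 4 each; log2 fold change -0.27, adjusted p = 0.00155), with no overlap. RPL11 did not pass, at 1064 ± 74.5 CPM in MANIO and 1050.1 ± 75.2 CPM in DMSO (0.02, SE 0.0664, adjusted p = 0.825). Ribosomal protein genes have many processed copies, so the counts of RPL5 and RPL11 are uncertain.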

How the data were processed

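Raw counts of reads per Ensembl gene, with 1 column for each of the 8 libraries, were deposited by the authors, as the whole numbers and the file headers show; 0 columns of values belonged to other samples. Per the labels' protocols, libraries were made from total RNA with the TruSeq RNA kit, version 2, which does not mark strand. The build GRCh38 and the tools STAR 2.5.3a, HTSeq, DESeq2 and FastQC 1.3 are named, without roles, in the submitters' processing notes. For annotation release, strand setting and multiply aligned reads, nothing was given in the sources used here.

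Counts were filtered by filterByExpr, scaled by TMM and fitted with edgeR 4.0.16 in R 4.3.3 (robust quasi-likelihood, group as the only term; Benjamini-Hochberg over all tested genes, threshold 0.05). The fit was tested on simulated data in which far fewer genes changed than here. That run does not show how the fit performs on these data. Positions and lengths come from GENCODE release 29 (GRCh38), promoters from RefSeq. DESeq2 1.42.0, other scalings, no filter, a replicate block, glmTreat and fits without each library were alternatives. Same-numbered libraries were not treated as pairs. The members and gene lists were chosen with earlier results of these data known. Levels in every library are given for all Pol I members. Per other role they are given for the 3 members of smallest p and the member of highest CPM. They are also given for NCL, chosen after its values were seen, and for LTV1, which this rule did not name. From each further list the 2 genes of smallest p with a mean log2 CPM of at least 1 are named. Other genes of these lists that the text names were added after their values were seen. Some of these have group means and some only the fold change. Outside the pathway the rule named CDKN1A, MDM2, MYC, RPL5 and RPL11; a further gene it named is not reported here.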

Additional observations from a re-analysis of the deposited data

Results flagged for a closer look

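In 122 groups of 4 libraries examined for the genes named, 8 held a library far from the other 3, where about 6.1 would be flagged by chance at 1 in 20. BOP1 had 157 CPM in MANIO replicate 4 and 191 to 197 CPM in the other MANIO libraries. RRP1 had 56.5 CPM in that library, against 61.6 to 62.6 CPM in the others, and NIP7 had 106 CPM, against 95.9 to 97.0 CPM. CDKN1A had 1257 CPM in MANIO replicate 4 and 1445 to 1462 CPM in the others, and RPAP3 had 60.3 CPM, against 49.8 to 51.4 CPM. POLR1B had 91.8 CPM in MANIO replicate 3 and 100.1 to 101 CPM in the others. POLR1E had 75.0 CPM in MANIO replicate 1 and 73.0 to 73.2 CPM in the others. GNL2 had 119.7 CPM in DMSO replicate 4 and 132 to 135 CPM in the others.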

How the results depend on the processing

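The members' counts were 13 higher and 13 lower. They kept within 1.5 times under DESeq2 size factors, upper-quartile scaling, DESeq2, no filter, removal of mitochondrial genes and the replicate block. With no filter they were 9 and 14, where POLR1E, NOLC1, WDR43 and TSR1 lost their calls and RRP9 gained one. Against a 1.2-fold limit, a stricter test by construction, the counts became 3 and 2. That limit left 4132 genes called in all and 15 of the 53 calls in the 5 further lists. Leaving out 1 library gave 9 to 13 members higher, 11 to 14 lower, 7818 to 8622 genes called and 43 to 64 calls in the further lists. The members' median log2 fold change ranged from 0.0055 (without DMSO replicate 4) to 0.064 (without DMSO replicate 2); the cause was not tested. With the replicate block 13 members rose, 13 fell and 8845 genes were called; WDR12 lost its call and RRP9 gained one. Deviations of same-numbered libraries correlated at 0.013 to 0.213 and those of other pairs at -0.426 to 0.350. The numbers were not taken as pairing, and whether they mark pairs was not tested. A member that did not pass turned direction for PES1 (-0.00196 with no filter; -0.024 to 0.053 with 1 library left out), NIP7 (-0.00388 with upper-quartile scaling, -6.79e-04 with DESeq2, -0.00702 with no filter; -0.024 to 0.032) and PPAN (-0.046 to 0.256), and so did RPL11 (-0.030 to 0.056). No member that passed turned direction in the 15 alternatives. With 1 library left out, processome rises fell to 2 without MANIO replicate 2 or DMSO replicate 3 or 4, and also with no filter, and pre-60S falls to 2 without MANIO replicate 1, 2 or 3 or DMSO replicate 1, 2 or 3. The smallest member change that passed was -0.14 (GNL3, SE 0.0527), and RRP9 at -0.15 (SE 0.0659) did not pass, so the test set no single limit of size.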
